A study of Zea mays with 16 samples.

Results

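The 60 probes described here were the transcripts with the largest excess in *Mu killer* anthers over *Mu* active anthers among those higher in *Mu killer* on each of 8 arrays. They were chosen by the ratio of the 2 lines itself. Of 42034 maize probes on the array, 28295 were well above background in both colors on all 8 arrays, which means more than 2.6 SD above the local background in the scanner software. In 492 of these, or 1.74%, the log2 ratio (*Mu killer* divided by *Mu* active) was above 0 on all 8 arrays, and the 60 with the largest mean were taken. Another 385 probes had a negative ratio on all 8 arrays. The ratio between the lines is therefore given as a description throughout, and nothing is supported with a test of it.

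RNA came from anthers of sibling plants descended from a cross between a line carrying *Mu killer* and a high copy mutator line with the *bz2-mu2* reporter. *Mu* active plants grew from spotted kernels, and *Mu killer* plants grew from bronze kernels and carried *Mu killer* by PCR. Both lines were sampled at anther lengths of 1 mm and 2 mm with 4 replicates per line and stage, each a pool of anthers, so 16 labeled samples were hybridized on 8 arrays. Each array held RNA of both lines in different colors, with the colors exchanged on 2 of the 4 arrays of a stage. In the series description the silenced line is named inactive, whereas the sample labels name it *Mu killer*. The arrays were scanned, by the date in the scanner output, earlier than the growing season that the methods state, and neither point was resolved. Another uncertainty concerns the colors, since the labels place 1 line in both colors of each array. Lines were therefore taken from the labels of the Cy3 samples, and a Cy5 sample was counted as the line not in Cy3 on its array, as the color key of the study's design drawing shows. The caption of that drawing gives the opposite, under which all 60 transcripts would be higher in *Mu* active by the same amounts. All arrays of a stage came from 1 slide, and stage and slide cannot be told apart.

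*MuDR* is the autonomous element of the *Mutator* family of maize transposons. It encodes the transposase MURA and a second protein, MURB. *Mu killer* is a rearranged derivative of *MuDR* that silences *MuDR* in a heritable way. Earlier work proposed a hairpin RNA as its product. The study proposes that short antisense transcripts from *Mu killer* are needed for the silencing, and leaves a hairpin from longer transcripts possible. Maize anthers are staged by length because the setting of cell fates, meiosis and pollen formation follow it. The array design names the 60 probes only by transcript identifiers, 42 beginning with TC and 18 of other forms, and describes none of them. None of the 60 identifiers was matched in the reference gene table, so roles in the anther are not given. The 60 probes stood for 60 different identifiers and were spread over the array, with 1 pair within 2 rows and 2 columns of each other.

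For all 28295 probes, the median log2 ratio of an array was between -0.03 and 0.06. In single samples, between 32697 and 37898 probes were well above background. The 4 *MuDR* probes were well above background in all 16 samples, and none was among the 60. Their mean log2 ratios over the 8 arrays were -0.81 for MUDR-TIRA, 0.22 for MUDRA, -0.20 for MUDRB and 0.06 for MUDRA-21, each with arrays of both signs. The ratio was below 0 on 6 of 8 arrays for MUDR-TIRA and MUDRB, on 2 for MUDRA and on 4 for MUDRA-21. According to the study, *Mu killer* holds terminal repeats and part of the transposase gene, and all maize lines hold transcribed, defective relatives of *MuDR*. Whether the 4 probes read RNA of *MuDR* alone was not tested. Of the meiocyte markers, the array names *AM1*, which is needed to enter meiosis in maize, and 2 of its 3 probes were well above background in all 16 samples. Markers of other anther cell types could not be matched to probes by name.

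The mean log2 ratio of the 60 members ranged from 1.11 to 3.27 with a median of 1.39, which corresponds to a 2.63-fold excess in *Mu killer*. The limit of 60 fell in a dense part of the range. The last members were TC315773 and TC291325, each with a mean log2 ratio of 1.13, and DR795247 with 1.11. Just outside were CD526606 with 1.11, MAGI4_8735 with 1.11 and TC310711 with 1.11. A positive ratio on every array did not mean a large one on every array. The ratio reached 2-fold on all 8 arrays for 2 members, TC292835 and TC280205, and 1.5-fold on all 8 arrays for 15 members. In 12 members the log2 ratio on at least 1 array was below 0.1. In 54 members it reached 4-fold on at least 1 array. The median SD of the log2 ratio over the 8 arrays was 0.75 for the members and 0.57 for all 28295 probes, and 47 of the 60 members were above the latter value.

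**Figure D1:**
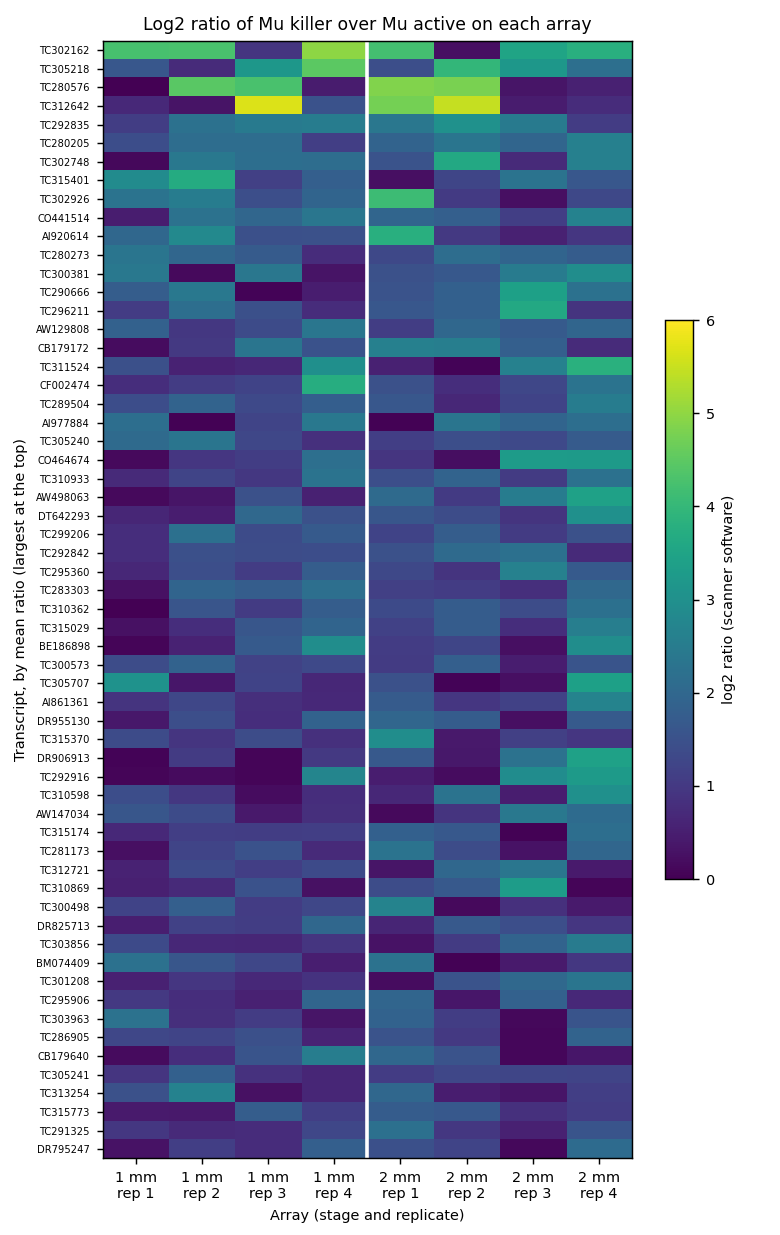
Log2 ratio of *Mu killer* to *Mu* active from the scanner software for the 60 transcripts (vertical axis, largest mean at the top) on the 8 arrays (horizontal axis, 1 mm left and 2 mm right of the white line). Replicate 1 at 1 mm holds many dark cells, with the lowest ratio for 17 of 60 members, and replicate 4 at 2 mm holds the highest for 20.

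The arrays did not contribute equally. The median log2 ratio over the members was 0.92 in replicate 1 at 1 mm, the lowest of the 8 arrays. It was 1.23, 1.26 and 1.46 in replicates 2 to 4 at 1 mm. At 2 mm it was 1.51, 1.42, 1.23 and 1.97 in replicates 1 to 4. The ratio was lowest in replicate 1 at 1 mm for 17 members and highest in replicate 4 at 2 mm for 20 members. With replicate 1 at 1 mm left out of the rule, 24 of its 60 largest were among the members described here. *Mu killer* RNA carried Cy3 on the first of these arrays and Cy5 on the second.

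Grouped by eye after their values were seen, a first kind of member had a 1.5-fold or larger excess in *Mu killer* on every array, by factors that still varied. For TC280205, the log2 ratio was 1.41, 2.14, 2.15 and 1.10 at 1 mm and 1.92, 2.34, 1.95 and 2.61 at 2 mm, with a mean of 1.95 ± 0.49 (SD, n = 8 arrays). Its processed signal, a background-subtracted brightness without a fixed unit, was 1980, 5484, 4193 and 5634 in *Mu killer* and 745, 1240, 945 and 2624 in *Mu* active at 1 mm. At 2 mm it was 4939, 3996, 12481 and 15465 in *Mu killer* and 1304, 788, 3240 and 2540 in *Mu* active. The lines overlapped at 1 mm, where the lowest *Mu killer* sample was below the highest *Mu* active sample, and did not overlap at 2 mm. Among the brightest members was TC280273, with a processed signal in *Mu killer* of 56153, 87615, 66392 and 86650 at 1 mm and 65399, 81679, 67702 and 48285 at 2 mm. In *Mu* active it was 11067, 22380, 19955 and 51293 at 1 mm and 26649, 18419, 17655 and 14345 at 2 mm. TC280273 was separated between the lines at both stages, and its mean log2 ratio was 1.74 ± 0.51 (SD, n = 8). AW129808, near the dim end, had a mean of 1.66 ± 0.48 (SD, n = 8), with signals of 49.5, 67.3, 49.0 and 158 in *Mu killer* against 13.5, 34.2, 18.9 and 30.9 in *Mu* active at 1 mm. Its place in this kind depended on the processing. With the normexp (offset 50) and loess ratios given below, its mean log2 ratio was 0.39, under 1.5-fold, and its lowest array 0.09. TC289504, with a mean of 1.56 ± 0.55 (SD, n = 8), kept *Mu killer* signals between 1089 and 2240 in all 8 samples, whereas *Mu* active lay between 388 and 1349.

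A second kind of member took either a high or a low level in a sample, and its mean ratio rested on the arrays where the lines differed. For TC302162, the member with the largest mean ratio, the processed signal in *Mu killer* was 1792, 1917, 3127 and 5646 at 1 mm and 2764, 1175, 1054 and 805 at 2 mm. In *Mu* active it was 93.9, 99.2, 1634 and 178 at 1 mm and 149, 994, 93.3 and 58.6 at 2 mm. Replicate 3 at 1 mm and replicate 2 at 2 mm of *Mu* active thus stood near the *Mu killer* samples, and the other 6 *Mu* active samples were far below. The log2 ratio was 0.94 and 0.24 on these 2 arrays and between 3.50 and 4.98 on the other 6, with a mean of 3.27 ± 1.72 (SD, n = 8).

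For TC280576, the processed signal in *Mu* active was 211, 339, 273 and 5766 at 1 mm and 311, 358, 11192 and 7806 at 2 mm. In *Mu killer* it was 211, 7539, 5268 and 7971 at 1 mm and 9062, 9877, 14067 and 11352 at 2 mm. The high level was present in 7 of 8 *Mu killer* samples and 3 of 8 *Mu* active samples, and no sample lay between 358 and 5268. Replicate 1 at 1 mm was low in both lines, and its log2 ratio of 0.0018 was the smallest positive value among the members. On the 4 arrays where only *Mu killer* was high the log2 ratio was between 4.27 and 4.87, and on the other 4 it was between 0.0018 and 0.54. The mean of 2.47 ± 2.29 (SD, n = 8) describes neither set.

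TC312642 behaved in a like manner. Its processed signal in *Mu killer* was 77.5, 123, 7973 and 12063 at 1 mm and 2606, 6856, 3047 and 26.9 at 2 mm, while the *Mu* active signal was 47.7, 99.4, 154 and 4222 at 1 mm, then 96.4, 154, 2204 and 15.7 at 2 mm. The high level was seen in 5 of 8 *Mu killer* samples and 2 of 8 *Mu* active samples. The log2 ratio was between 4.76 and 5.69 on the 3 arrays where only *Mu killer* was high. On the other 5 arrays it was between 0.31 and 1.51.

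**Figure D2:**
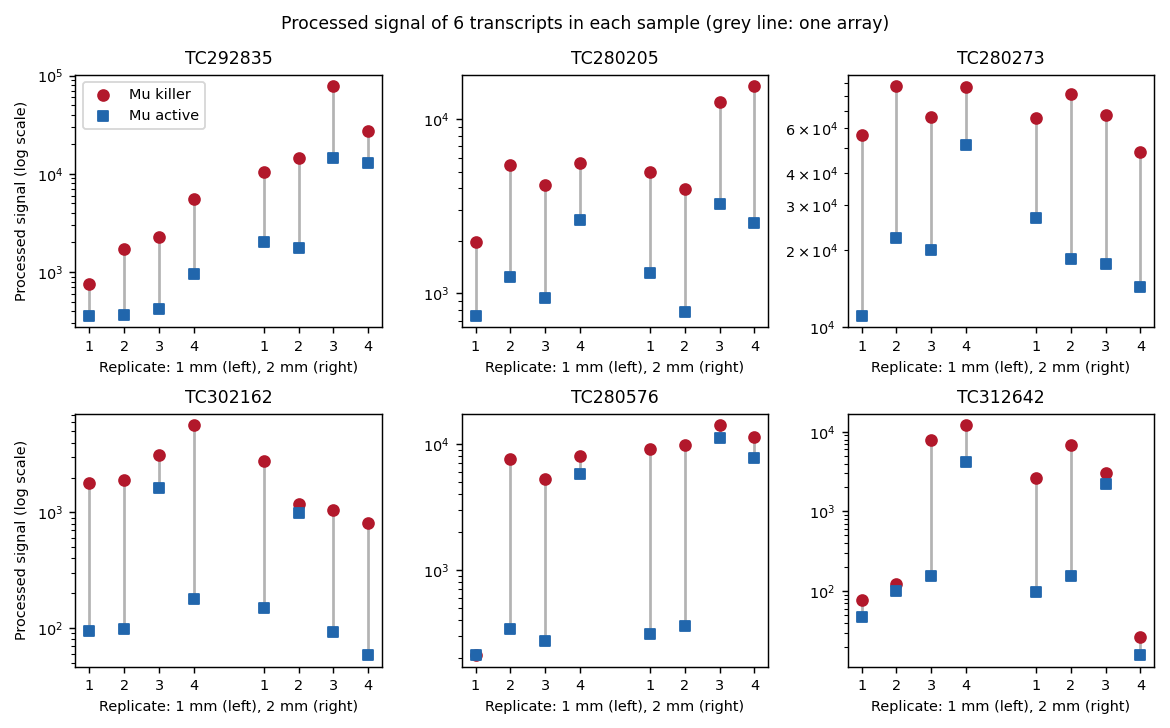
Processed signal (vertical axis, log scale, no fixed unit) of 6 transcripts in the 8 *Mu killer* samples (circles) and the 8 *Mu* active samples (squares), with a grey line for each array and the replicates on the horizontal axis. The lines are at least 1.5-fold apart on every array for TC292835, TC280205 and TC280273, whereas TC302162, TC280576 and TC312642 have samples of *Mu* active at the *Mu killer* level, such as 5766 against 7971 for TC280576 in replicate 4 at 1 mm.

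TC305218 was dim, and its excess varied from array to array. Its processed signal was 124, 205, 156 and 464 in *Mu killer* and 39.9, 123, 17.2 and 20.6 in *Mu* active at 1 mm, with 548, 735, 300 and 393 against 200, 46.7, 33.4 and 85.8 at 2 mm. The lines did not overlap at either stage, though by as little as 124 against 123 at 1 mm, and the log2 ratio ranged from 0.74 to 4.49 with an SD of 1.31 (n = 8), and the mean corresponds to a 6.08-fold excess. TC302926 and AI920614 had similar ratios over the arrays. The log2 ratio of TC302926 was 2.29, 2.52, 1.45 and 1.94 at 1 mm and 4.11, 1.02, 0.26 and 1.29 at 2 mm. That of AI920614 was 2.01, 2.82, 1.46 and 1.49 at 1 mm and 3.79, 1.00, 0.56 and 0.95 at 2 mm. Both were highest in replicate 1 and lowest in replicate 3 at 2 mm, and in both the lines did not overlap at either stage. In TC302926 the *Mu killer* signal at 2 mm was 2077, 2243, 2320 and 2359, whereas *Mu* active was 120, 1109, 1941 and 965. TC311524 had its largest ratios on other arrays, with log2 ratios of 2.99 in replicate 4 at 1 mm and 2.65 and 3.81 in replicates 3 and 4 at 2 mm, and between 0.07 and 1.47 on the other 5.

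The other 9 of the 20 members with the largest means had mean log2 ratios between 1.58 and 2.15. TC292835 (2.15 ± 0.70), CO441514 (1.83 ± 0.71) and CB179172 (1.60 ± 0.90, SD, n = 8 in each) were lowest in replicate 4 at 2 mm, replicate 1 at 1 mm and replicate 1 at 1 mm. TC302748 (1.92 ± 1.10) and TC315401 (1.87 ± 1.08) fell to log2 ratios of 0.14 and 0.24 on 1 array each. TC300381 (1.73 ± 1.03) and TC290666 (1.72 ± 1.07) had log2 ratios below 0.5 on 2 arrays each, all at 1 mm. TC296211 (1.68 ± 0.91) and CF002474 (1.58 ± 1.00) each had 1 array at a log2 ratio above 3.5. These SDs are over 8 arrays.

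Levels of single samples overlapped between the lines more often than the ratios within arrays imply. The lowest *Mu killer* signal was above the highest *Mu* active signal in 18 of 60 members at 1 mm and in 29 at 2 mm, where 0.725% and 4.26% of all 28295 probes had such a separation. It held at both stages in 12 members and at neither in 25, and the matching shares over all probes were not counted. Since the ratio chose the members, these counts are a description only. Across replicates of a line and stage, the median SD of the log2 signal was between 0.64 and 0.81 for the members and between 0.45 and 0.52 for all probes. The members were neither bright nor dim as a group. Their median signal was 432 against 430.4 for all probes, 7 members had a mean signal below 100, and 4 were above 10000.

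The ratio was present at both stages. The mean log2 ratio of the stage reached 1.5-fold in 59 of 60 members at 1 mm and in 60 at 2 mm, where 5.95% and 12.4% of all probes did so. Its median over the members was 1.27 at 1 mm and 1.57 at 2 mm, and 43 members had the larger ratio at 2 mm. The demand for a positive ratio on all arrays fixed most of this pattern. In the limma fit of normalized ratios, the difference of the log2 ratio between the stages was between -1.08 and 0.87 in the members, with a median SE of 0.35. It passed the adjusted threshold in 0 of 60 members and 0 of 28295 probes, and had an unadjusted p under 0.05 in 0 members and 563 probes, or 1.99%. The choice of the members limited how far their ratios could differ between the stages, so these counts are a description and nothing is read from them. The dye effect, which the balanced exchange of colors separates from the ratio between the lines, passed the adjusted threshold in 0 of 60 members and 0 of 28295 probes. It had an unadjusted p under 0.05 in 3 of 60 members, TC292916, TC295360 and TC311524. The same held for 2963 of 28295 probes, a larger share than among the members. The 0 calls therefore do not show that dye effects were absent.

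The level averaged over both colors of an array was compared between the stages. It is not the ratio that ranked the members, but it holds the same signals, and the background filter used them. The counts that follow are thus not fully independent of the choice. At 2 mm, 14 of 60 members (23.3%) were higher, whereas 6.75% of all 28295 probes were called higher, by limma with a Benjamini-Hochberg adjusted p under 0.05 and a fold of at least 1.5 on levels corrected with an offset of 50. Lower at 2 mm was 1 member (1.67%), against 7.91% of all probes. The log2 stage difference was above 0 in 49 of 60 members and in 50.03% of all probes, and its median was 0.38 in the members and 0.00022 in all probes. By line, the median was 0.49 for *Mu killer* and 0.30 for *Mu* active. The number of calls depended on how the arrays were scaled. With median scaling between arrays, 6 members and 1310 of all probes were called, against 15 and 4148 in both directions above. The share was still larger among the 60 members than among all 28295 probes. Without scaling, 1 member and 912 of all probes were called, a smaller share among the members.

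TC292835 had the largest rise. Its processed signal in *Mu killer* was 762, 1707, 2274 and 5523 at 1 mm and 10545, 14363, 78224 and 27084 at 2 mm. In *Mu* active it was 359, 362, 420 and 965 at 1 mm and 2016, 1758, 14314 and 12894 at 2 mm. Within each line the stages did not overlap, and the log2 stage difference over both lines was 3.31 (SE 0.46, adjusted p = 0.0023 from limma). Its ratio between the lines was similar at both stages, with mean log2 ratios of 2.07 at 1 mm and 2.23 at 2 mm.

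TC315401, TC312721 and TC292842 followed with log2 stage differences of 2.38 (SE 0.48, adjusted p = 0.0094), 1.92 (SE 0.29, adjusted p = 0.0034) and 1.77 (SE 0.39, adjusted p = 0.014 from limma). These 4 transcripts shared their highest *Mu killer* sample, replicate 3 at 2 mm. Its processed signal was 56142 for TC315401, 49742 for TC312721 and 34536 for TC292842, whereas the other *Mu killer* samples at 2 mm ranged from 5443 to 44733, from 10714 to 21916 and from 7267 to 10426. The call of TC315401 was lost with median scaling (adjusted p = 0.057 from limma), without scaling (0.081) and in *Mu killer* alone (0.069). That of TC312721 was lost without scaling (0.16), and that of TC292842 without scaling (0.27) and in *Mu* active alone (0.0504). Within *Mu killer* at 1 mm, all 4 were highest in replicate 4, and *Mu* active was highest in replicate 4 at 1 mm as well. The stages overlapped in *Mu killer* for TC315401 and TC292842. TC310933 came next with 1.24 (SE 0.24, adjusted p = 0.0082 from limma), with *Mu killer* signals between 396 and 1185 at 1 mm and between 1191 and 2577 at 2 mm. Its difference was 0.99 with median scaling (adjusted p = 0.12 from limma), 0.74 without scaling (0.40) and 1.00 in *Mu* active alone (0.055), none of which was called.

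The other 9 called members rose by between 0.59 and 1.15 on the log2 scale. They were CF002474, DR955130, TC300573, TC299206, DR825713, TC315370, TC310362, TC305218 and DT642293. In TC299206 the *Mu killer* signal was 89.0, 163, 121 and 200 at 1 mm and 496, 730, 765 and 546 at 2 mm, and the difference was 0.94 (SE 0.10, adjusted p = 0.0010 from limma). The offset of 50 draws differences of such dim probes toward 0. The 1 member called lower at 2 mm, TC283303, had *Mu killer* signals of 135, 763, 690 and 983 at 1 mm and 306, 255, 202 and 272 at 2 mm, with a difference of -0.59 (SE 0.17, adjusted p = 0.035 from limma). That call was lost under 12 of 17 alternatives. The remaining 45 members had differences between -0.58 and 1.58 and were not called. Fitted within 1 line, the stage difference was called in 14 members (23.3%) for *Mu killer*, against 12.2% of all probes, and in 5 members (8.33%) for *Mu* active, against 5.77% of all probes. In 3 members it was called in both lines. Calls in both lines were not counted over all probes, so nothing is read from that count. Whether the lines differ in it was not tested apart from the ratio that chose the members.

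**Figure D3:**
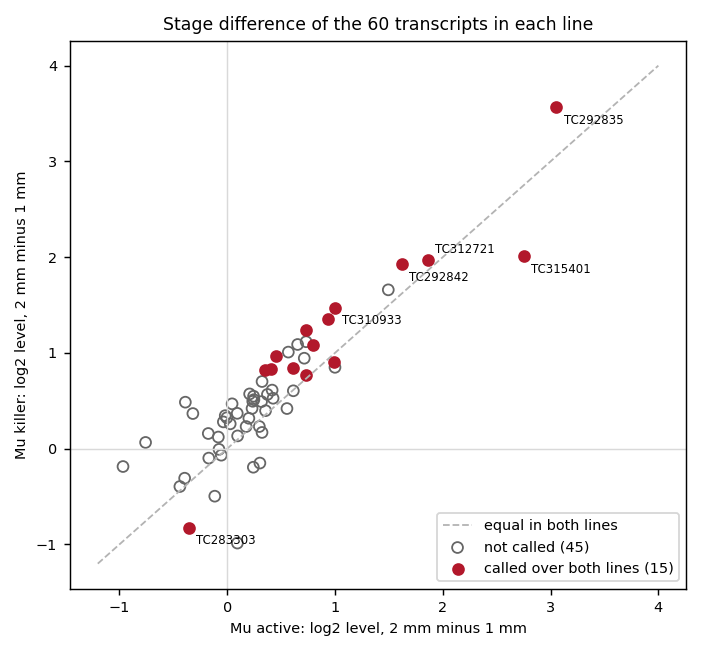
Log2 level at 2 mm minus 1 mm in *Mu killer* (vertical axis) against *Mu* active (horizontal axis) for the 60 transcripts, with filled points for the 15 called over both lines and a dashed line where both lines are equal. Most points lie above 0 in both lines, and TC292835 lies farthest out with a difference over both lines of 3.31.

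A second probe with the same transcript identifier was present on the array for 6 members. The rule screened these probes as well, and none was taken. Of the 6, 3 passed the background filter but were not positive on all 8 arrays, and the rest failed the filter. The choice of members therefore limited the agreement that could be seen, and these ratios are given as a description. In 1 of the 6, TC303856, the second probe was also higher in *Mu killer* on all 8 arrays, with log2 ratios between 0.27 and 1.96, although it was well above background in 15 of 16 samples only. For TC299206 the second probe was positive on 6 of 8 arrays with a mean log2 ratio of 0.62, against 1.44 for the member. For TC302926 it was positive on 6 of 8 arrays and ranged from -1.91 to 1.87, against a mean of 1.86 for the member. On the array of TC302926's largest ratio, replicate 1 at 2 mm with 4.11, the second probe gave -0.68.

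The 2 probes of TC280576 differed most. The second probe was well above background in all 16 samples with signals between 1783 and 13648, and did not show the low level of the member probe in any sample. Its log2 ratio was between -0.75 and 0.57 with a mean of -0.19. For TC280205 and TC313254 the second probes were well above background in 11 and 14 of 16 samples, with log2 ratios between -0.28 and 2.86 and between -1.23 and 2.37. The former was positive on 5 of 8 arrays with a mean of 0.79, and the latter on 2 of 8 with a mean of -0.02, against 1.95 and 1.13 for the members. The sequences of the probes were not used here, so whether both probes of an identifier read the same RNA was not tested.

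**Figure D4:**
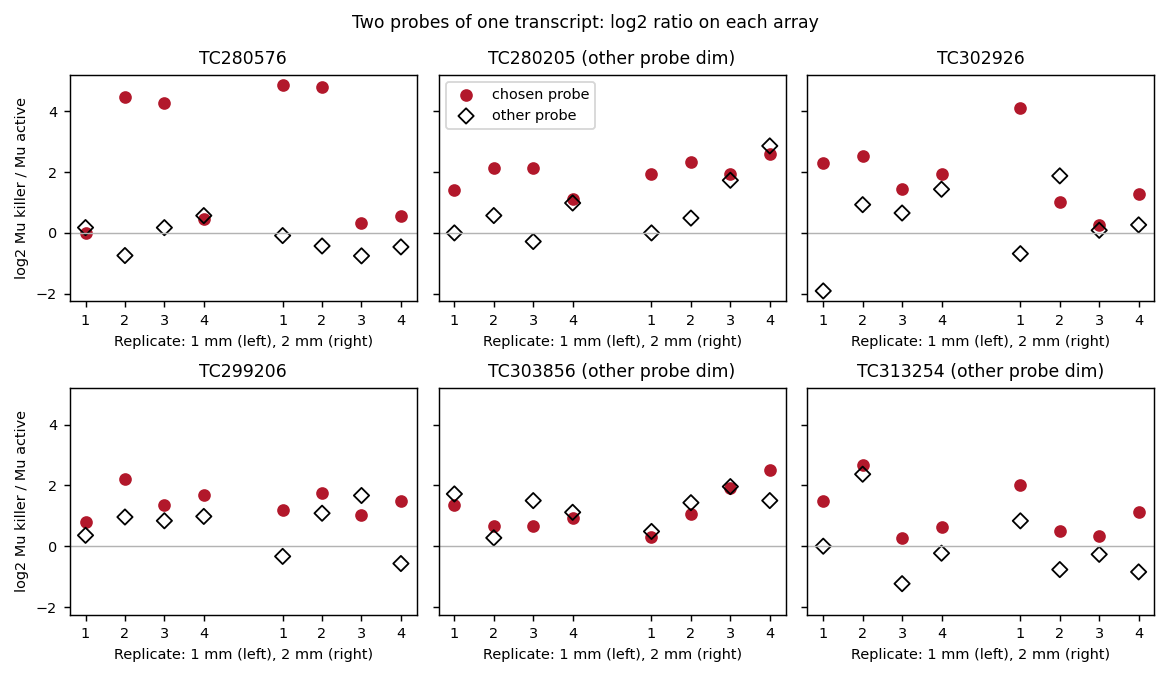
Log2 ratio of *Mu killer* to *Mu* active (vertical axis) on each array (horizontal axis, replicates of 1 mm left and 2 mm right) for the chosen probe (filled circles) and the second probe (open diamonds) of 6 transcripts. The probes lie close together for TC303856, whereas the second probe of TC280576 stays between -0.75 and 0.57.

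The size of the ratio depended on the processing, in which background correction and normalization changed together. When mean intensities were corrected by limma's normexp method (offset 50) and the ratios were normalized by loess, the mean log2 ratio of the members had a median of 0.84 and ranged from 0.18 to 2.20. It was positive in 60 of 60 members and reached 1.5-fold in 44. In 52 members it was positive on every array with a value. The other 8 had 1 array at or below 0, with the lowest log2 ratio at -0.16, in AI977884. For TC315174, 1 spot marked as an outlier at 1 mm had no value in that processing. The 7 members with a mean signal below 100 went from a median log2 ratio of 1.51 to 0.47, and the 19 members above 1000 from 1.44 to 1.26. The rule applied to these ratios gave 443 probes that were positive on all arrays, and its 60 largest held 35 of the members.

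**Figure D5:**
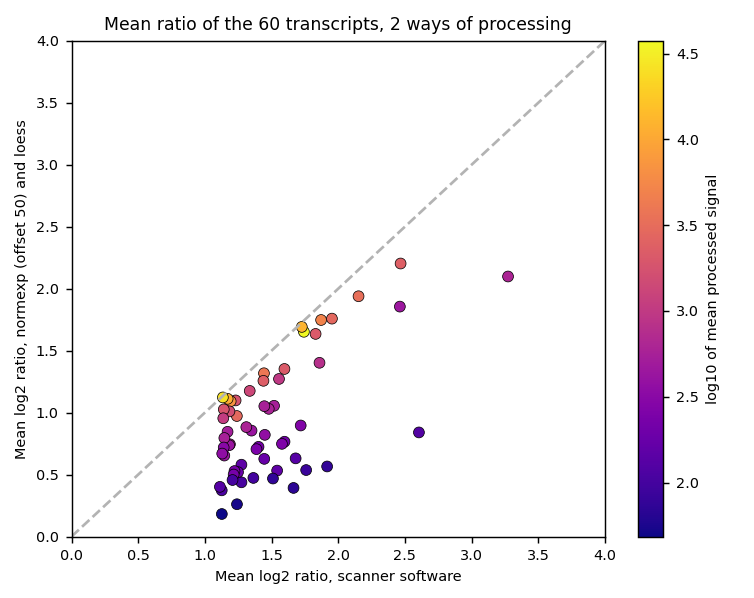
Mean log2 ratio of *Mu killer* to *Mu* active after normexp correction with an offset of 50 and loess (vertical axis) against that of the scanner software (horizontal axis) for the 60 transcripts, shaded by the log10 of the mean processed signal, with a dashed line of equality. Bright members lie near the line and dim members far below it, with medians of 1.26 and 0.47 on the vertical axis.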

How the data were processed

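The authors' scanner software, Agilent Feature Extraction 9.5.3.1, gave the deposited intensity of each spot and its background, a mark for spots well above background, a processed signal, and a log10 ratio (Cy5 divided by Cy3), here turned to log2 of *Mu killer* divided by *Mu* active. A table of normalized intensity for each color, deposited by the authors, was an alternative. Its replicates ran in the reverse order of the arrays within a stage, with the colors exchanged. This was not settled, and its values were used as labeled.

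The members and lists were chosen with earlier results of these data known. Named were the 20 largest means, 3 members inside and 3 probes outside the limit, the 5 largest called stage differences per direction and all *MuDR* probes.

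For the stage difference, limma 3.58.1 in R 4.3.3 was run on log2 levels averaged over both colors (normexp with an offset of 50, loess within arrays, Aquantile between arrays) for the 28295 probes, 4 arrays per stage. Dye effect and stage difference of the ratio were fitted to loess ratios. Calls needed a Benjamini-Hochberg adjusted p under 0.05, and for the stage a fold of at least 1.5. Outlier spots were left out of the fits, 1 of 480 member spots among them. No member spot was saturated. On simulated data with 28295 probes, the stage fit recovered 72% of 2-fold and 87% of 4-fold changes. For the stage difference of the ratio these shares were 28% and 70%. For the dye effect, simulated at smaller sizes, 26% and 71% were recovered. Alternatives covered background offset, normalization, the deposited table, outlier spots, the probes tested, the replicate block, each line alone and each array left out. The number of arrays limits the precision. Figures and counts were made in Python 3.11.15 with pandas 2.3.3, numpy 2.4.6 and matplotlib 3.10.9.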

Additional observations from a re-analysis of the deposited data

Results flagged for a closer look

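In 10 of 126 groups of 4 samples looked at, 1 sample lay far from the other 3 on the log2 scale by Dixon's criterion. Chance alone marks about 1 in 20 groups. All groups but 2 held the processed signals of a named member. In *Mu killer* at 1 mm, replicate 1 was low for TC280576 (211, others from 5268 to 7971), TC302748 (23.5, others from 194 to 233) and DR825713 (182, others from 542 to 671). In the same group, replicate 4 was high for TC292842 (7963, others from 2414 to 2704) and TC312721 (9534, others from 4291 to 4833). In *Mu* active at 1 mm, replicate 4 was high for TC280576 (5766, others from 211 to 339) and TC292835 (965, others from 359 to 420), and replicate 1 was low for TC283303 (112, others from 201 to 215). In *Mu* active at 2 mm, replicate 4 was low for TC310362 (154, others from 237 to 252) and replicate 3 was high for TC299206 (372, others from 196 to 215).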

How the results depend on the processing

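The median over the members of the mean log2 ratio was 1.39 from the scanner software, 1.04 with normexp without offset and loess, 0.84 with an offset of 50 and loess, 0.76 from the deposited table and 0.63 with an offset of 50 and each array centered on its median. Leaving out outlier spots changed it by less than the spread between arrays, as did the comparison of group means with no replicate block (1.39), and without 1 array it ranged from 1.29 to 1.53. All 60 ratios were positive on all arrays by choice, and 52 or more were so under the alternatives, except that centering on the median left 27.

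Members called between the stages (15) came to 6 with median scaling, 1 with no normalization between arrays and 5 in *Mu* active alone, all of them higher at 2 mm. Called lower was 0 under these settings, with processed signals, with the replicate block and in *Mu killer* alone. Without 1 array, between 10 and 15 were called, 10 to 14 higher and 0 or 1 lower. Of all probes, 4148 were called, with 1310, 912 and 1634 under these 3 settings, 6433 with processed signals, 6936 at any fold, and from 3419 to 4190 without 1 array. Levels averaged over both colors showed little likeness between arrays of the same replicate number across stages (correlations from -0.17 to 0.072). As they mix both lines, they cannot show whether samples were paired. The replicate block gave 19 called members and 3988 called among all probes. The calls of dye, and of the stage difference of the ratio, which the choice of members limited, were 0 under all alternatives run. The rule without 1 array shared between 24 and 57 of its 60 with the members, with 24 without replicate 1 at 1 mm, 34 without replicate 3 and 39 without replicate 1 at 2 mm. That comparison was added after seeing the data. The cause of these changes was not tested.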
